A study of Mus musculus with 18 samples.

Results

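Bulk kidney RNA of 18 mice was sorted into libraries with and without adipocyte transcripts by the level of *Adipoq*, the gene of the fat cell hormone adiponectin. A library was placed on the fat-bearing side when *Adipoq* reached at least 1 CPM (counts of a gene per 1000000 reads counted on all genes of that library), and on the fat-free side when it did not, so the members were chosen by this level alone. This put 6 of the 18 libraries on the fat-bearing side and 12 on the fat-free side. Because *Adipoq* chose the sides, the levels of adipocyte genes on each side are a description of what the rule selected, and the calls between the sides describe which genes went with *Adipoq*.

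The mice were CD-1 offspring aged 6 wk, labelled wild type, and each gave 1 library. They formed 4 groups by maternal diet and sex: 5 males and 5 females of dams on a low-protein (LP) diet with 8% protein, and 5 males and 3 females of dams on a normal-protein (NP) diet with 18% protein. Dams received their diet through gestation and lactation, and offspring of both diets ate the NP diet after weaning. All mice had been injected with cationic ferritin for kidney imaging and perfused with saline, with a shorter interval between the last injection and collection in males than in females. RNA came from a piece of the left kidney per the labels' protocol, while the series' design text names a whole kidney. None of the sources used here says which end of the kidney was taken or whether the capsule and the fat around it were removed.

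Adipocytes store triglyceride in droplets that are coated by perilipins and by proteins of the CIDE family, and they release fatty acids from these droplets when adrenergic receptors are stimulated. White adipocytes secrete hormones such as adiponectin, leptin, resistin, and adipsin. Brown adipocytes hold many small droplets and the mitochondrial uncoupling protein UCP1, which turns fuel oxidation into heat. The kidney lies in a fat pad and has further fat in its sinus, around the pelvis and the large vessels, and in mice the fat next to the kidney can contain both kinds of adipocyte.

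Depth ran from 14050486 to 23562411 gene reads per library, with overlapping ranges on both sides. The share of reads that stayed unassigned ran from 28.6% in LP male 4 to 36.1% in NP female 3. Kidney markers were abundant on both sides, where the summed level of 12 proximal tubule genes was 15175 to 21106 CPM in the fat-bearing and 16060 to 22836 CPM in the fat-free libraries. Libraries of LP female 1, LP female 2, and NP female 3 stood apart from the others. Their level of the glucocorticoid-responsive gene *Fkbp5* was 31.0, 23.7, and 43.4 CPM, against 269 to 568 CPM in the other 15 libraries, and their level of the interferon-induced gene *Ifit1* was 4.61, 6.17, and 4.63 CPM against 110 to 748 CPM. NP female 3 is fat-bearing and the others are fat-free, so the numbers of called genes are given with and without NP female 3. In bulk RNA, fewer cells of a type and less RNA per cell cannot be told apart. How much fat the animal had cannot be read from the side of a library, and the relation between them was not tested.

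The fat-bearing libraries were spread over both diets and both sexes. They were NP female 2, NP male 2, LP male 4, NP male 3, LP female 5, and NP female 3. By diet, 2 of 10 LP libraries and 4 of 8 NP libraries were fat-bearing (two-sided Fisher's exact test, p = 0.321), and by sex 3 of 8 female and 3 of 10 male libraries were (p = 1). The split was the same at a threshold of 0.5 CPM. At 2 CPM NP female 2 moved to the fat-free side, and at 5 CPM only LP female 5 and NP female 3 stayed fat-bearing, with exact p-values of 0.608 and 1 for diet and 1 and 0.183 for sex at those 2 thresholds. With so few libraries a difference between the diets in how often fat was present could have been missed.

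*Adipoq* and *Ucp1* mark the cells at issue, and the sequence just before each gene's start is shown here because the levels of both genes set the account that follows. On GRCm39, *Adipoq* lies at chr16:22964106-22976810 (plus strand) and *Ucp1* at chr8:84016647-84025085 (plus strand), as annotated in GENCODE vM39. The 250 bases shown lie before the start of each gene in RefSeq on an earlier build, GRCm38.p6. They are at chr16:23146286-23146535 and chr8:83290098-83290347, both on the plus strand, written 5′ to 3′. The RefSeq start need not be the GENCODE start given above. Capitals mark matches to AGGTCA, the half-site bound by many nuclear receptors, to TATAAA, the TATA box, or to CCAAT, the CCAAT box, searched on both strands.
Adipoq: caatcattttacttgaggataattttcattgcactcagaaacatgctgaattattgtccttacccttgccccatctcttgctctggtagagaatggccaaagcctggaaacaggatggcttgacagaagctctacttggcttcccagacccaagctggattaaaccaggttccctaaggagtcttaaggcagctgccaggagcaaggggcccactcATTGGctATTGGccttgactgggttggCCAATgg
Ucp1: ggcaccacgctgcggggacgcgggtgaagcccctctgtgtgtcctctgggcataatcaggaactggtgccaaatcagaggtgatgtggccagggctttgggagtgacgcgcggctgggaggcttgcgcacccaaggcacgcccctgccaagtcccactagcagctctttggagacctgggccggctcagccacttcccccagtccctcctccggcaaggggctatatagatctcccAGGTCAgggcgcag
*Adipoq* had CCAAT matches that began 34, 27, and 7 bases before the start, those at 34 and 27 on the opposite strand, and no match to the other letters. *Ucp1* had 1 AGGTCA match, which began 14 bases before the start. RefSeq windows were found for 21 of the 33 genes called higher in the fat-bearing libraries. AGGTCA was in 3 of these 21 and in 13.8% of 27025 windows of the same length, CCAAT in 6 of 21 and in 34.5% of windows, and TATAAA in 1 of 21 and in 12.97%. These matches are letters in a window and not binding sites, and their shares among the called genes were near those of all windows.

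In the fat-bearing libraries *Adipoq* was at 1.14 CPM in NP female 2, 2.91 in NP male 2, 3.81 in LP male 4, 4.01 in NP male 3, 7.94 in LP female 5, and 15.5 in NP female 3. The library just inside the threshold, NP female 2, had 19 *Adipoq* reads, and NP female 3 had 225. Just outside it were LP female 1 at 0.405 CPM, NP female 1 at 0.324 CPM, and LP male 1 at 0.285 CPM, and 7 of the 12 fat-free libraries had no *Adipoq* read. A count of 0 allows up to 3 reads, or 0.127 to 0.214 CPM at these depths, by counting error alone. Pooled over the libraries of each side, 629 reads stood against 19, so the side labelled fat-free held traces of the same transcript.

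**Figure D1:**
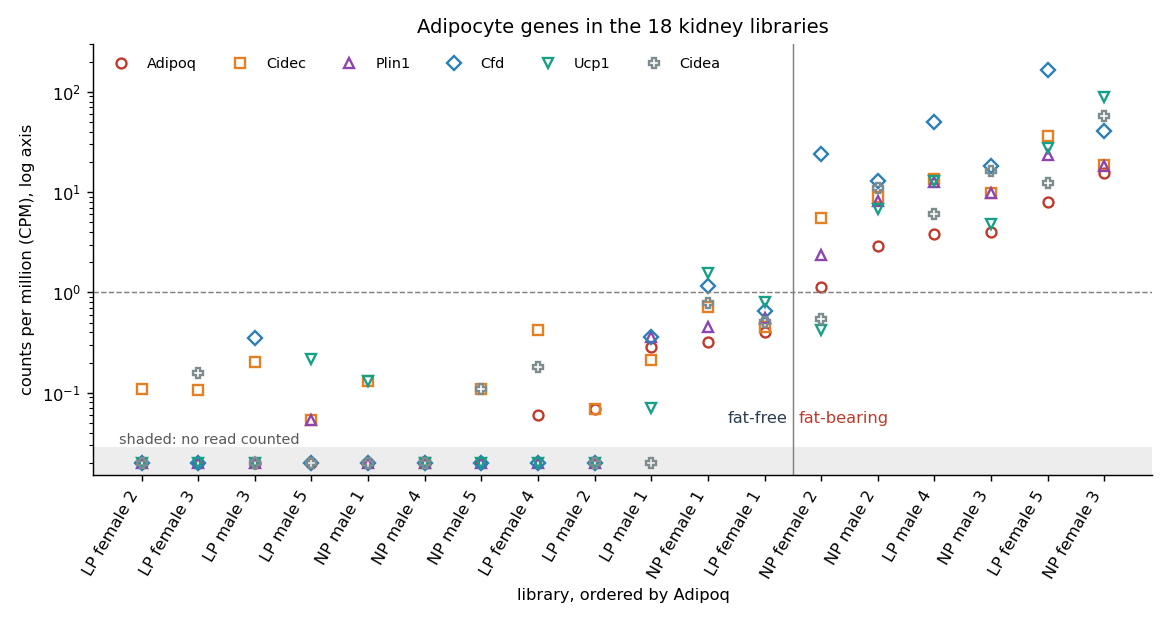
Levels of 6 adipocyte genes (CPM, log axis) in each of the 18 libraries, ordered from left to right by *Adipoq*; points in the shaded band had no read, the dashed line is at 1 CPM, and the vertical line separates the 12 fat-free from the 6 fat-bearing libraries. *Cidec*, *Plin1*, and *Cfd* were higher in each of the 6 fat-bearing libraries than in any fat-free one, while *Ucp1* and *Cidea* in NP female 2, at 0.420 and 0.541 CPM, lay below their levels in NP female 1.

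Other adipocyte genes followed the split. *Cfd*, which encodes the secreted protease adipsin, was at 24.3, 12.9, 50.1, 18.3, 166, and 40.7 CPM in NP female 2, NP male 2, LP male 4, NP male 3, LP female 5, and NP female 3, and reached at most 1.16 CPM in a fat-free library. *Cidec*, a protein that fuses lipid droplets, was at 5.47, 8.96, 13.5, 9.89, 36.2, and 18.6 CPM in the same order, with at most 0.712 CPM on the fat-free side. *Plin1*, the perilipin that coats the droplets of adipocytes, was at 2.34, 8.07, 12.7, 9.71, 23.2, and 18.2 CPM, with at most 0.557 CPM. For these genes the 2 sides did not overlap, and LP female 5 was the highest of the 6 libraries although NP female 3 had more *Adipoq*. In NP female 1 and LP female 1, the fat-free libraries closest to the threshold, *Cfd*, *Cidec*, and *Plin1* were also above their levels in each of the other 10 fat-free libraries.

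*Retn*, which encodes resistin, had 330 reads over the 6 fat-bearing libraries and 2 over the 12 fat-free ones, both in LP female 1. Over the pooled libraries of each side, the level of *Cfd* was 282-fold higher on the fat-bearing side (95% exact interval for counting error, 209 to 391), that of *Plin1* 110-fold (73.8 to 173), and that of *Ucp1* 96.2-fold (72.1 to 131). With some single libraries left out, a check added after the data had been seen, the ratios fell outside these intervals. *Cfd* was 144-fold higher without LP female 5 and 449-fold without NP female 1, *Plin1* 184-fold without LP female 1, and *Ucp1* 52.0-fold without NP female 3 and 182-fold without NP female 1. These intervals cover counting error and not the spread between mice. *Lep*, the gene of leptin, had a mean count too low to be tested, with 71 reads over the fat-bearing and 4 over the fat-free libraries, and 46 of the 71 came from NP female 3. That library also held 1287 of the 2426 *Ucp1* reads on its side. *Otop1*, a proton channel of brown adipocytes, was also below that limit, with 174 reads against 2. Both were chosen for mention after their values had been seen.

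Across all genes, 15678 had a mean count of at least 10 over the 18 libraries and were tested with edgeR's quasi-likelihood test with sex in the model. A gene was called when its Benjamini-Hochberg adjusted p was under 0.05 and its difference at least 1.5-fold. By this rule 33 genes, or 0.210% of those tested, were called higher in the fat-bearing libraries. By the same test 0 were called lower, although 1202 genes, 607 of them lower, had an unadjusted p under 0.05. DESeq2's Wald test called 68 higher and 1 lower, the predicted gene *Gm64317*, named after its values had been seen. Of the genes tested, 17, or 0.108%, were higher in each fat-bearing than in each fat-free library, and all 17 were among the 33 called, while 0 genes were lower in each of them. The rule used this contrast, so nothing is read from these shares. The median log2 fold change of all genes tested was -0.0048. Of the 33 called genes, 18 belong to lists of adipocyte, lipid droplet, or fatty acid synthesis genes, and 16 were called whichever of the 18 libraries was left out. The library was not strand-specific and 23 of the 33 genes overlap another annotated gene, so some of their reads may have been set aside or may come from the neighbour.

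**Figure D2:**
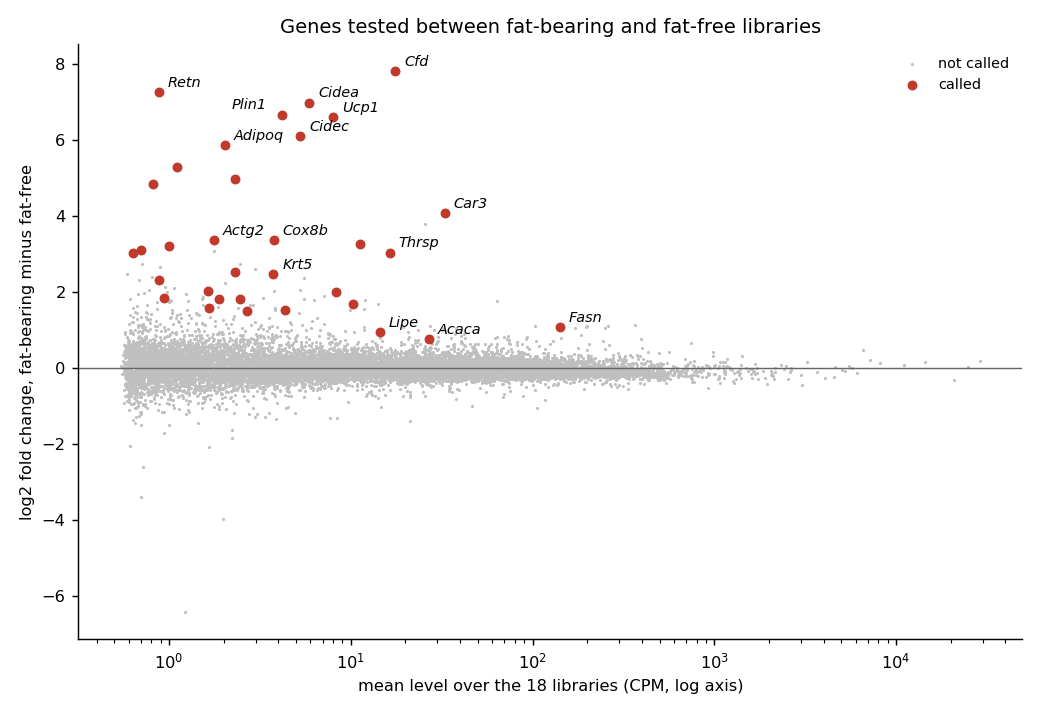
Log2 fold change (fat-bearing minus fat-free, vertical axis) against the mean level over the 18 libraries (CPM, log axis) for the 15678 genes tested, with the 33 called genes in red and some of them named. The called genes lie above 0, from a log2 fold change of 0.77 for *Acaca* to 7.81 for *Cfd*, and the other genes are centred on 0.

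The list of white and shared adipocyte genes held 32 genes, of which 29 were tested. Of these, 12, *Adipoq* itself included, were called higher and 0 lower, with a median log2 fold change of 1.29 over the 29. The fitted log2 fold changes (± SE) of those with the largest differences were 7.81 ± 0.63 for *Cfd*, 7.26 ± 0.67 for *Retn*, 6.67 ± 0.63 for *Plin1*, and 6.10 ± 0.40 for *Cidec*. Each SE here and below was calculated back from the test, as the log2 fold change divided by the square root of its F statistic. It is an approximation and not an SE estimated by the fit. For genes close to 0 reads on the fat-free side, the fitted value depends on the small count that the fit adds. Their SE depends on it too. *Adrb3*, the beta-3 adrenergic receptor through which adipocytes are told to release fatty acids, was at 0.661, 1.96, 2.20, 0.486, 6.11, and 7.67 CPM in the fat-bearing libraries and at most 0.506 CPM in the others, so the sides overlapped through NP male 3. *Adig*, a small protein of the adipocyte lipid droplet, had a log2 fold change of 4.84 ± 0.69.

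Some of the called genes were also present in libraries without *Adipoq* reads. *Car3*, a carbonic anhydrase that is abundant in fat and muscle, was at 31.6, 37.6, 108, 48.8, 190, and 107 CPM in the fat-bearing libraries and at 0.635 to 21.6 CPM in the fat-free ones, a log2 fold change of 4.07 ± 0.57 with no overlap. *Hp*, the hemoglobin-binding protein haptoglobin, was at 8.53 to 89.1 CPM against 0.386 to 4.97 CPM. *Thrsp*, a nuclear protein that goes with fatty acid synthesis, was at 8.77 to 137 CPM against 1.27 to 16.04 CPM, and *Plin4*, a perilipin of nascent droplets, at 8.53 to 36.1 CPM against 1.06 to 12.4 CPM, and for both the sides overlapped. *Lipe*, the hormone-sensitive lipase, was at 13.996 to 41.2 CPM against 6.90 to 13.7 CPM, a log2 fold change of 0.95 ± 0.18.

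The other 17 tested genes of that list were not called by edgeR. DESeq2 called 16 of the 29, which were the 12 and *Fabp4*, *Pparg*, *Rbp4*, and *Trarg1*, named after their values had been seen. Limma-voom, run with quality weights for the libraries, called 16 as well. Over all 15678 genes tested, DESeq2 called 69 and limma-voom 373, so their counts for any list stand beside more calls than those of edgeR. Several of the 17 are genes that kidney tubules or vessels express as well. *Lpl*, the lipase that takes up fatty acids from lipoproteins, was at 718 to 1189 CPM in the fat-bearing and 284 to 1415 CPM in the fat-free libraries. *Cd36*, a fatty acid transporter that is far more abundant in male than in female kidney here, was at 115 to 1278 CPM against 39.4 to 1352 CPM. *Pck1*, which serves glyceroneogenesis in fat and gluconeogenesis in the proximal tubule, was at 3179 to 7366 CPM against 2471 to 9411 CPM. *Fabp4*, an adipocyte and endothelial fatty acid carrier, had a log2 fold change of 1.69 ± 0.41 and was at 104 CPM in NP female 3 against 6.67 to 29.2 CPM in the other 5. These 4 genes were chosen for mention after their values had been seen.

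Brown adipocyte genes were measured by a list of 26 genes, of which 18 were tested, and 4 of these were called higher and 0 lower. The median log2 fold change over the 18 was 0.16. *Ucp1* was at 0.420 CPM in NP female 2, 6.77 in NP male 2, 13.03 in LP male 4, 4.86 in NP male 3, 27.8 in LP female 5, and 88.9 in NP female 3. On the fat-free side it reached 1.55 CPM in NP female 1 and 0.810 CPM in LP female 1, and it had no read in 7 libraries. Its log2 fold change was 6.60 ± 0.81, and the sides overlapped through NP female 2 alone.

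*Cidea*, the CIDE protein of brown adipocytes, was at 0.541, 11.04, 6.10, 16.2, 12.4, and 58.0 CPM in the same order of libraries and at most 0.776 CPM on the fat-free side. *Cox8b*, a subunit of cytochrome c oxidase in brown fat and muscle, was at 1.08, 3.80, 1.97, 4.19, 6.88, and 31.2 CPM, but 4 female fat-free libraries had 3.30 to 5.73 CPM of it. Its log2 fold change was 3.36 ± 0.68, and *Psmd13* overlaps it on the other strand. It was called in 3 of the 18 fits that each left out 1 library, and was not called when the replicate number was a block. *Kcnk3*, a potassium channel of brown adipocytes and other cells, was at 1.86, 3.62, 3.99, 7.10, 5.43, and 8.98 CPM against 0.423 to 1.32 CPM, with no overlap. *Ppargc1a* and *Prdm16*, coactivators of the brown fat program that the kidney also expresses, had log2 fold changes of 0.26 ± 0.13 and 0.18 ± 0.13 and were not called, and *Zic1*, a transcription factor of classical brown fat depots, had 0 reads in all 18 libraries. These 3 were chosen for mention after their values had been seen.

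The make-up of the adipocyte signal was compared between the 6 libraries by dividing the counts of each gene by the *Adipoq* count of the same library. The 95% exact intervals given here cover counting error alone. Each ratio comes from 1 mouse, so the spread between mice was not measured, and its denominator is the count that chose the libraries. NP female 3 had 5.72 *Ucp1* reads per *Adipoq* read (4.96 to 6.62) and NP female 2 had 0.368 (0.131 to 0.915, from 7 *Ucp1* reads), a 15.5-fold range. The other 4 libraries lay between, at 1.21 in NP male 3, 2.33 in NP male 2, 3.42 in LP male 4, and 3.50 in LP female 5. *Cidea* per *Adipoq* had an 8.54-fold range, with 0.474 (0.189 to 1.10) in NP female 2 as the lowest. *Cox8b* per *Adipoq* was 0.947 in NP female 2 and 2.00 in NP female 3. Other genes of the brown list went the other way between these libraries. *Kcnk3* per *Adipoq* was 1.63 (0.893 to 3.06) in NP female 2 and lowest in NP female 3, at 0.578 (0.462 to 0.720). *Otop1* per *Adipoq* was 0.474 (0.189 to 1.10) in NP female 2 and 0.324 (0.246 to 0.424) in NP female 3.

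*Retn* per *Adipoq* was lowest in NP female 3, at 0.0267 (0.00968 to 0.0590, from 6 reads), and highest in NP female 2, at 1.74 (0.959 to 3.23), a 65.1-fold range. *Cfd* per *Adipoq* was 2.62 (2.24 to 3.07) in NP female 3, 4.43 in NP male 2, 4.56 in NP male 3, 13.1 in LP male 4, 21.0 in LP female 5, and 21.3 (13.4 to 35.7) in NP female 2. *Lep* per *Adipoq* was highest in NP female 3, at 0.204 (0.146 to 0.282), so not all white adipocyte hormones were low there relative to *Adipoq*. Other adipocyte genes differed in their range, which was 8.99-fold for *Hp*, 6.35-fold for *Adrb3*, 5.22-fold for *Otop1*, and 4.01-fold for *Cidec*. It was narrower for some, at 2.84-fold for *Plin1*, 2.31-fold for *Thrsp*, 2.19-fold for the amino acid transporter *Slc36a2*, and 2.01-fold for *Adig*.

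**Figure D3:**
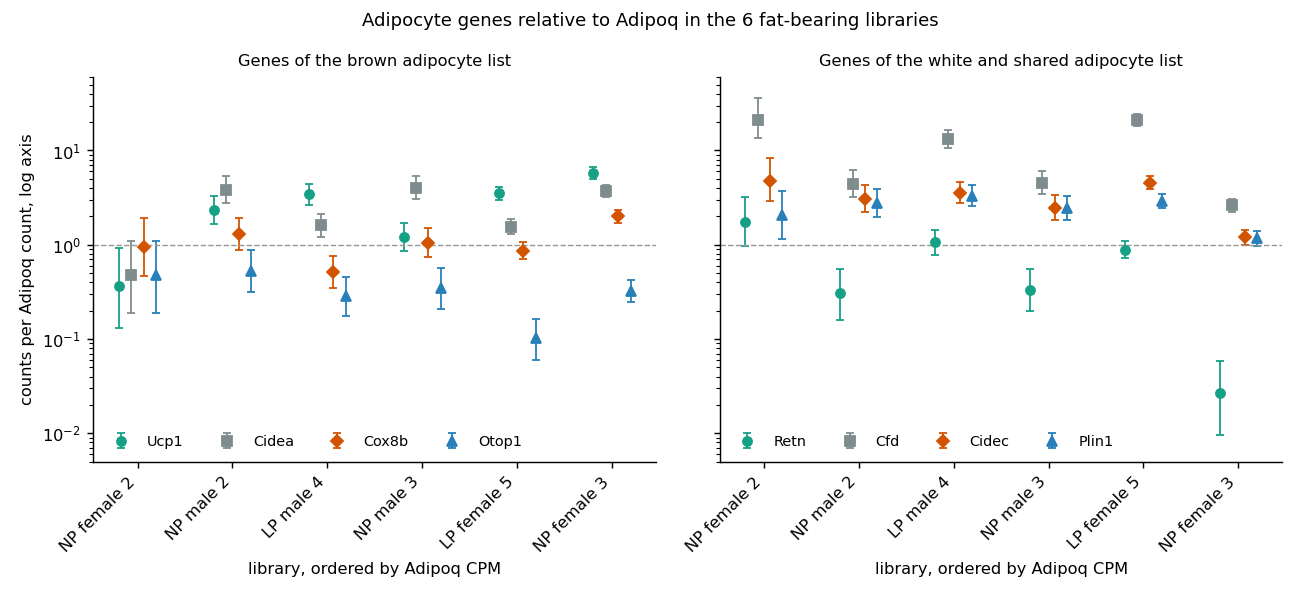
Reads of 4 brown and 4 white or shared adipocyte genes per *Adipoq* read (log axis) in the 6 fat-bearing libraries, ordered by *Adipoq* CPM, with bars for the 95% exact interval of counting error. *Ucp1* per *Adipoq* spans 0.368 in NP female 2 to 5.72 in NP female 3, while *Retn* per *Adipoq* spans 1.74 to 0.0267 between the same libraries.

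Set directly against each other, *Ucp1* and *Cfd* ordered the 6 libraries from NP female 2, with 0.0173 *Ucp1* reads per *Cfd* read, through LP female 5 at 0.167, LP male 4 at 0.260, NP male 3 at 0.266, and NP male 2 at 0.525, to NP female 3 at 2.19. NP female 3 is the fat-bearing library among the 3 that stood apart in *Fkbp5* and *Ifit1*, and the part of that state in its ratios was not tested. Each ratio is from 1 mouse, so no difference between diets or sexes in this make-up can be read from them. Per kilobase of exon, the median level over the 6 libraries was 33.7 CPM per kb for *Cfd*, 25.2 for *Car3*, 11.8 for *Thrsp*, 10.6 for *Hp*, 5.24 for *Cidea*, 5.10 for *Ucp1*, 3.79 for *Cidec*, 1.76 for *Plin1*, 1.72 for *Adipoq*, and 0.613 for *Retn*.

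Among the enzymes of fatty acid synthesis, *Fasn* and *Acaca* were called, and their levels were well above those of most adipocyte genes. Of 22 genes tested on the list of fatty acid and triglyceride synthesis, 3 were called higher and 0 lower, and the median log2 fold change was 0.13. *Fasn*, the fatty acid synthase, was at 131, 144, 259, 243, 259, and 283 CPM in NP female 2, NP male 2, LP male 4, NP male 3, LP female 5, and NP female 3, and at 65.1 to 137 CPM in the fat-free libraries. *Acaca*, acetyl-CoA carboxylase, which makes the malonyl-CoA that *Fasn* uses, was at 29.4 to 51.7 CPM against 18.1 to 24.3 CPM, with no overlap and a log2 fold change of 0.77 ± 0.11. *Thrsp* was the third.

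Other enzymes of that list were not called over all libraries. *Scd1*, the desaturase that makes oleate, was at 239 to 1797 CPM in the fat-bearing libraries and at 78.8 to 4608 CPM in the fat-free ones, where LP female 4 was the highest of all 18. In the males alone edgeR called *Scd1* and *Thrsp* higher, and *Fasn* and *Acaca* were not called there. *Acly*, which supplies cytosolic acetyl-CoA, was at 106 to 229 CPM against 120 to 216 CPM. Both were chosen for mention after their values had been seen. Of 25 tested genes of lipid droplets and lipolysis, 6 were called, and these were the droplet coat genes *Plin1* and *Plin4*, the CIDE genes *Cidea* and *Cidec*, the lipase *Lipe*, and the receptor *Adrb3*.

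Further called genes were on no list. *Slc36a2*, an amino acid transporter on the surface of beige and brown adipocytes, was at 0.781 CPM in NP female 2 and 2.75 to 14.1 CPM in the other fat-bearing libraries, against at most 0.647 CPM, with a log2 fold change of 4.98 ± 0.52. *Apol6*, of the apolipoprotein L family, was at 0.734 to 3.52 CPM against at most 0.582 CPM, and it overlaps *Mb* on the other strand. *Arxes2*, an adipocyte gene of the endoplasmic reticulum, was at 1.66 to 8.43 CPM against 0.110 to 1.36 CPM. *Hk2*, the hexokinase of insulin-responsive tissues, was at 3.10 to 6.24 CPM against 0.605 to 2.22 CPM. *Prkar2b*, the regulatory subunit of protein kinase A that is abundant in fat, was at 13.3 to 30.7 CPM against 3.44 to 11.6 CPM. *Aoc3*, an amine oxidase of adipocytes and smooth muscle, was at 5.995 to 13.6 CPM against 0.912 to 3.95 CPM. For none of these 6 genes did the sides overlap. The 7 called genes left, chosen for mention after their values had been seen, were *Mrap*, *Bche*, *Cpxm2*, *B3galt2*, *Fndc1*, *Cd1d1*, and *Ntrk3*, with log2 fold changes from 3.20 for *Mrap*, the accessory protein of melanocortin receptors, to 1.51 for *Ntrk3*, a neurotrophin receptor.

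Markers of other tissue next to the kidney moved with some of the fat-bearing libraries. Urothelium, the lining of the renal pelvis and ureter, was measured by 7 genes, of which 1, *Krt5*, was called and all 7 had a log2 fold change above 0, with a median of 1.66. In edgeR all 7 had an unadjusted p under 0.05, and DESeq2 called 2, *Krt5* and *Trp63*. *Krt5*, the keratin of basal urothelial cells, was at 10.5, 5.10, 12.7, 16.2, 3.35, and 2.28 CPM in NP female 2, NP male 2, LP male 4, NP male 3, LP female 5, and NP female 3, and at 0.261 to 3.91 CPM in the fat-free libraries. *Upk1a*, *Upk1b*, and *Upk2*, which build the plaques of the urothelial surface, had log2 fold changes of 1.32 ± 0.49, 1.80 ± 0.53, and 1.66 ± 0.52 and were not called by edgeR. Limma-voom called all 7 genes of the list, among the 373 that it called over all genes. The call of *Krt5* was made in 6 of the 18 fits that each left out 1 library. With the replicate number as a block, or at an *Adipoq* threshold of 2 CPM, no gene of the list was called.

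The summed level of the 7 urothelial genes was 57.3 CPM in NP female 2, 39.4 in NP male 2, 63.3 in LP male 4, 107 in NP male 3, 25.5 in LP female 5, and 5.60 in NP female 3. It was 4.10 to 39.6 CPM in the fat-free libraries, with LP male 3 the highest. The 2 sides overlapped, and NP female 3, with the most *Adipoq*, had less of these markers than 11 of the 12 fat-free libraries. NP male 3, which had the most of them, was at 4.01 CPM of *Adipoq*.

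Smooth muscle and vessel wall gave a like picture. Of 7 genes tested, 1, *Actg2*, was called and all 7 had a log2 fold change above 0, with a median of 0.71. In edgeR 4 of the 7 had an unadjusted p under 0.05, and DESeq2 called 2, *Actg2* and *Cnn1*. *Actg2*, the gamma actin of visceral smooth muscle, was at 5.41, 1.84, 9.68, 6.74, and 2.89 CPM in NP female 2, NP male 2, LP male 4, NP male 3, and LP female 5, had no read in NP female 3, and was at 0.0506 to 1.35 CPM in the fat-free libraries. The summed level of the list's 8 genes was 189, 81.4, 214, 178, 132, and 68.1 CPM in NP female 2, NP male 2, LP male 4, NP male 3, LP female 5, and NP female 3, against 50.5 to 112 CPM. *Myh11*, *Acta2*, and *Des*, the defining markers of the list, were not called by edgeR over all libraries, and *Myh11* had a log2 fold change of 1.06 ± 0.33. Limma-voom called *Acta2*, *Actg2*, *Cnn1*, and *Myh11*. The edgeR call of *Actg2* was made in 15 of the 18 fits that each left out 1 library. No gene of this list was called with the replicate number as a block, at an *Adipoq* threshold of 2 CPM, or within either sex alone. The part of urothelium and smooth muscle in the other calls was not tested.

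**Figure D4:**
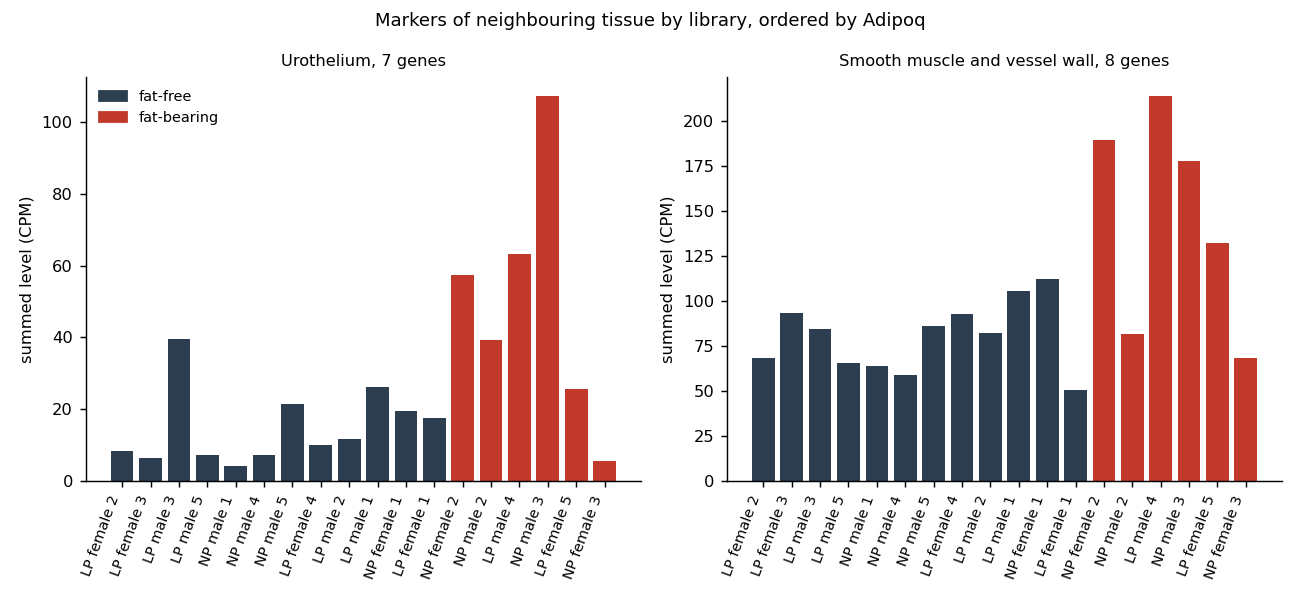
Summed level (CPM) of 7 urothelial genes (left) and of 8 smooth muscle and vessel wall genes (right) in each library, ordered by *Adipoq*, with fat-bearing libraries in red and fat-free ones in dark blue. NP female 2, LP male 4, and NP male 3 exceeded each fat-free library in both panels, while NP female 3 was at 5.60 and 68.1 CPM, inside the range of the fat-free libraries.

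When NP female 3 was left out, 75 genes were called, of which 67 were higher and 8 lower, and 30 of the 33 were among them. The urothelial genes called were then *Krt20*, *Krt5*, *Trp63*, and *Upk1b*, the smooth muscle genes were *Actg2* and *Cnn1*, and the genes of the mesothelium list were *Krt19* and *Upk1b*. *Upk1b* is on both the urothelium and the mesothelium list, so its call does not tell these tissues apart. The white adipocyte list gave 11 calls and the brown list 3. *Cox8b* was no longer called, and *Adig* no longer reached the mean count for testing. Without LP female 1, LP female 2, and NP female 3, all 3 of the libraries that stood apart, 114 genes were called, 102 higher and 12 lower, and 32 of the 33 were among them. The interferon-induced genes *Ifit1*, *Ifit2*, and *Rsad2* and the smooth muscle gene *Myh11* were then called too. *Ifit1* was at 748 CPM in NP female 2 and 614 CPM in LP female 5, both fat-bearing, and at 110 to 290 CPM in the other libraries outside those 3. *Krt20*, *Krt19*, *Trp63*, *Cnn1*, and the interferon genes were named after their values had been seen.

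On the other lists of neighboring tissue, blood, and leukocytes edgeR called 0 genes over all 18 libraries. Of the preadipocyte and fibroblast list, 0 of 18 tested genes were called by edgeR, 3 had an unadjusted p under 0.05, DESeq2 called 1, the tetranectin gene *Clec3b*, and limma-voom called 2, *Clec3b* and *Dpt*. Both were named after their values had been seen, and edgeR called *Clec3b* when NP female 3 was left out. *Pdgfra*, the receptor that marks adipocyte progenitors, had a log2 fold change of 0.42 ± 0.31. Of the mesothelium list 0 of 7 were called by edgeR and by DESeq2, with 4 at an unadjusted p under 0.05 in edgeR, and limma-voom called 4, *Krt19*, *Msln*, *Upk1b*, and *Upk3b*. *Upk1b* is on the urothelium list as well. Mesothelin (*Msln*) had a log2 fold change of 1.15 ± 0.40.

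The adrenal gland lies above the kidney and could be cut with it. *Cyp11b1*, an enzyme of corticosteroid synthesis, and *Th*, the rate-limiting enzyme of catecholamine synthesis, had 0 reads in all 18 libraries, and *Cyp11a1*, which starts steroid synthesis, was at most 0.0918 CPM in a fat-bearing and 0.180 CPM in a fat-free library. *Ckm*, the creatine kinase of skeletal muscle, was at 0.0918 CPM in LP male 4 and 0.121 CPM in NP male 3 and had no read elsewhere. Over the lists of adrenal cortex, adrenal medulla, and skeletal muscle, 0 of 3, 0 of 1, and 0 of 3 tested genes were called by edgeR and by DESeq2, with 1, 0, and 0 at an unadjusted p under 0.05. None of the 8 pancreas genes reached the mean count for testing, and their summed level was at most 1.31 CPM, in NP female 3. By edgeR and by DESeq2, 0 of 7 tested lymphocyte genes and 0 of 4 tested nerve and Schwann cell genes were called, with 1 and 0 at an unadjusted p under 0.05. Of 8 tested macrophage genes 0 were called by edgeR and 1 by DESeq2 and by limma-voom, the mannose receptor *Mrc1*, named after its values had been seen, with 2 at an unadjusted p under 0.05. Without NP female 3, edgeR called *Mrc1* too. Of 4 tested red blood cell genes 0 were called by edgeR and by DESeq2 and 0 had such a p. Of the lists for interferon response, glucocorticoid response, and sex-biased kidney genes, 0 of 10, 0 of 10, and 0 of 8 genes were called by edgeR and by DESeq2 over all libraries, with 0, 0, and 1 at an unadjusted p under 0.05.

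Kidney cell types showed no difference between the sides that passed the test. Of 51 genes tested on lists of proximal tubule, thick ascending limb, distal convoluted tubule, collecting duct, podocyte, and endothelium, 0 were called by edgeR and 0 by DESeq2, and 1 had an unadjusted p under 0.05. Over all 15678 genes edgeR called 0.210%, and 1202 had such a p. At that share 0 calls among 51 genes say little about the kidney cells. Their log2 fold changes ran from -0.31 to 0.54. *Lrp2*, the endocytic receptor of the proximal tubule, had a log2 fold change of 0.07 ± 0.23, and *Umod*, the uromodulin gene of the thick ascending limb, had -0.30 ± 0.25. Both were chosen for mention after their values had been seen.

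The genes called over all libraries were also fitted within each sex. Since they were chosen on the same libraries, a positive sign within a sex was largely set by that choice and is given as a description. In the 10 males alone, 28 of the 33 genes were tested, all 28 had a log2 fold change above 0, and 13 had an adjusted p under 0.05. In the 8 females alone, all 33 were tested and had a log2 fold change above 0, but by edgeR 0 passed the adjusted threshold. The lowest adjusted p of any gene there was 0.224. Among the 28 genes *Cox8b* had the largest gap between the sexes, with a log2 fold change of 5.59 in males and 1.90 in females. The test of the difference itself, the interaction of side and sex, found 0 of 15678 genes at an adjusted p under 0.05 by edgeR and 0 by DESeq2, with 420 and 494 at an unadjusted p under 0.05. Each sex had 3 fat-bearing libraries, so these data do not show that the sexes were alike.

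**Figure D5:**
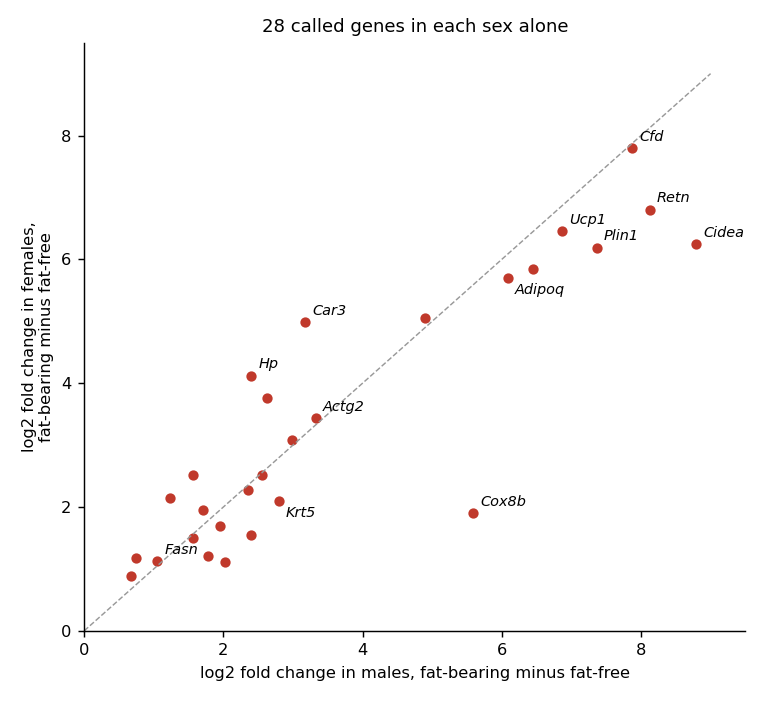
Log2 fold change (fat-bearing minus fat-free) in the 10 males alone (horizontal axis) and in the 8 females alone (vertical axis) for the 28 called genes tested in both, with the dashed line where both are equal. All 28 points lie above 0 on both axes, which the choice of the genes on the same libraries largely set, and *Cox8b* lies far below the line, at 5.59 in males and 1.90 in females.

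Since 1 LP and 2 NP males were fat-bearing, the diet differences of 3 genes that the study names in males were fitted with the side in the model. Of 15158 genes tested in the 10 males, 6, or 0.0396%, were called in either direction. *Gfra1*, the co-receptor of GDNF in ureteric bud branching, was at 3.13, 3.80, 2.33, 2.66, and 2.81 CPM in LP males 1 to 5 and at 24.2, 24.9, 54.1, 52.8, and 20.02 CPM in NP males 1 to 5. The diets did not overlap, and the fat-bearing males, LP male 4 and NP males 2 and 3, lay with the males of their own diet. The log2 fold change (LP minus NP) was -3.58 ± 0.33 with the side in the model (edgeR, adjusted p = 0.00165) and -3.61 ± 0.32 without it.

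*Aldh1a1*, an enzyme of retinoic acid synthesis, was at 5.20, 5.80, 8.32, 8.53, and 5.72 CPM in LP males 1 to 5 and at 31.0, 21.4, 28.2, 25.9, and 31.4 CPM in NP males 1 to 5. Its log2 fold change was -2.06 ± 0.18 (edgeR, adjusted p = 0.00165) with the side in the model and -2.05 ± 0.18 without it. *Dvl1*, a relay of WNT signaling, was at 73.6 to 94.0 CPM in LP and 107 to 134 CPM in NP males, with a log2 fold change of -0.60 ± 0.08 (edgeR, adjusted p = 0.0401) and of -0.61 ± 0.08 without the side. In the 7 fat-free males alone, the log2 fold changes were -3.43 ± 0.33 (*Gfra1*), -2.23 ± 0.20 (*Aldh1a1*), and -0.64 ± 0.11 (*Dvl1*), and the edgeR adjusted p-values were 0.00679, 0.00589, and 0.225. When the males were left out in turn, *Dvl1* was called in 1 of 10 fits, with edgeR adjusted p-values up to 0.153, and *Gfra1* and *Aldh1a1* in all 10.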

How the data were processed

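Poly(A) RNA of 18 kidneys was sequenced as non-directional libraries. Raw counts of reads per gene were deposited by the authors, who discarded low-quality reads, mapped the rest with STAR to GRCm39 under the Gencode vM36 annotation, and did not normalize. The column counted without regard to strand was used, and reads not assigned to 1 gene were left out. Names, positions, and exon lengths are those of GENCODE vM39, which holds 78168 of 78239 listed genes.

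The sides were compared with edgeR 4.0.16 (R 4.3.3; glmQLFit, TMM) with sex from the titles as a covariate, over genes with a mean count of at least 10. The study's filter of 10 reads in each library would drop genes that are absent without fat, so it was run as an alternative. DESeq2 1.42.0 and limma-voom with quality weights for the libraries (limma 3.58.1) were also run as alternatives. The fit of the sides was tested on simulated data. Exact intervals and Fisher's tests used scipy 1.17.1, and tables were made with Python 3.11.15.

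The sides, gene lists, and tests were chosen with earlier results of these data known. Named genes were *Adipoq*, *Ucp1*, the 15 largest and 5 smallest changes among called genes whose sides did not overlap, called list members, the leading 3 markers of lists of neighboring tissue, and the 3 diet genes. Fits without LP female 1, LP female 2, and NP female 3 were added after the data had been seen. Nothing in the sources ties a replicate number to a litter or day, and p-values measure the spread between the mice sampled. The authors report that the adult mice came from a few litters, and the diet was given to the dam. Each mouse was taken as independent, also in the diet tests, so the p-values do not cover the spread between litters.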

Additional observations from a re-analysis of the deposited data

Results flagged for a closer look

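Within the groups of 5 mice, 3 libraries stood apart from the other 4 of their group. This was judged by the gap between the extreme library and its nearest neighbor as a share of the group's range. At the critical value of 0.71, chance marks about 1 group in 20 if the values are normally distributed. Most fat-free libraries had few or no reads of adipocyte genes such as *Cfd* and *Retn*, so that rate need not hold for them. Of 33 combinations of value and group tested, 20 passed. The rule of *Adipoq* chose the sides, so the adipocyte values restate that 1 library of each LP group carried fat. LP male 4 stood apart from the other LP males in *Adipoq* (0.925), *Ucp1* (0.983), *Cidec* (0.988), *Plin1* (0.972), *Cfd* (0.993), *Cidea* (1), and *Retn* (1). It also did so in the urothelial keratin *Krt5* (0.717), in *Actg2* (0.879), and in the summed level of smooth muscle genes (0.729). LP female 5 stood apart from the other LP females in *Adipoq* (0.949), *Ucp1* (0.971), *Cidec* (0.990), *Plin1* (0.976), *Cfd* (0.996), *Cidea* (0.959), *Retn* (0.986), and *Actg2* (0.870). NP male 3 stood apart from the other NP males in *Actg2* (0.734) and in the summed level of smooth muscle genes (0.771), and not in the adipocyte genes, which NP male 2 carried as well. The 3 NP females were too few for this check.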

How the results depend on the processing

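The count of 33 genes called, all higher, moved by over 1.5 times under 9 settings and when LP male 4 or NP female 3 was left out. It was 9 when each library had to have 10 counts, 61 with no filter, 69 by DESeq2's Wald test (68 higher, 1 lower), 373 by limma-voom (281 higher, 92 lower), 15 with the replicate number as a block, 4 at an *Adipoq* threshold of 5 CPM, 17 in males alone, 0 in females alone, and 114 without LP female 1, LP female 2, and NP female 3 (102 higher, 12 lower). The 33 genes were all among the 69 of DESeq2, the 15 under the block were all among the 33, and the 4 at 5 CPM shared 0 with them. Leaving out each library in turn gave 20 to 75 genes, 20 to 67 higher and 0 to 8 lower. The extremes were 20 without LP male 4 and 75 without NP female 3. The counts were 34 with filterByExpr, 33 with DESeq2's size factors, 24 with sex and diet as covariates, 33 at 0.5 CPM, 30 at 2 CPM, and 33 by adjusted p alone. Of the white adipocyte list, 12 genes were called, against 3 with 10 counts in every library, 1 at 5 CPM, 7 in males, and 0 in females. The 4 of the brown list became 0 with 10 counts in every library, at 5 CPM, and in females. With one library left out, the lists gave 9 to 14 and 3 to 5 calls, and the kidney lists gave 0 throughout. With 10 counts in every library, most genes of the fat are no longer tested. In males alone and females alone there are fewer libraries, and the cause of the other moves was not tested.

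With the side in the model, the diet difference of *Dvl1* was -0.60 with the replicate number as a block (edgeR, adjusted p = 0.343) and -0.64 in fat-free males, neither called, and -0.65 to -0.56 when each male was left out. The block left *Gfra1* and *Aldh1a1* called (adjusted p = 0.0264 for both). Same-numbered libraries did not deviate together (correlations from -0.549 to 0.387, median -0.111), so the numbers were not taken as pairs. The interaction of side and sex gave 0 genes by edgeR with each library left out, with 298 to 913 at an unadjusted p under 0.05. *Adipoq* counts of 19 to 225 limit the precision of each library's ratios.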
